A study of Mus musculus with 12 samples.

Results

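Ribosomes are built from ribosomal RNA and a set of proteins that sit in a small (40S) and a large (60S) subunit. The genes for the cytosolic ribosomal proteins were followed through 3 populations of mouse thymocytes. A gene was taken when its mouse symbol was Rps or Rpl followed by a number and optional letters, or Rplp0, Rplp1, Rplp2 or Rpsa, and when it had at least 120 counts summed over the 12 libraries. S6 kinase genes and pseudogenes named -ps were left out. This gave 82 genes of the 43629 in the count table, 33 for the 40S subunit, 46 for the 60S subunit and 3 for the acidic stalk of the 60S subunit. Rpl39l (235 counts), Rps4l (427) and Rpl37rt (445) were the members with the fewest counts, and Rpl3l (114), Rpl6l (36) and Rpl10l (0) fell below the minimum.

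The libraries were made from total RNA of pre-T cells sorted from the thymus of C57BL/6 mice, with 4 biological replicates in each of 3 groups. DCKO DN3 libraries came from DN3-like cells of mice with floxed Zfp36l1 and Zfp36l2 alleles and a Cre recombinase driven by CD2 sequences, which is active in lymphocytes. Control DN3b and control DN3a libraries came from mice with the same floxed alleles and no Cre, so the Cre itself differs between DCKO and both controls. DN3a and DN3b are the stages of CD4- and CD8-negative thymocytes before and after beta selection, the point at which cells with a working T cell receptor beta chain go on to divide and differentiate. The products of Zfp36l1 and Zfp36l2 bind AU-rich elements of messengers and speed their decay.

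Ribosomal proteins are made in matched amounts and are among the most abundant messenger RNAs of growing cells. Most of their messengers begin with a 5′ terminal oligopyrimidine (TOP) start, a cytosine at the cap followed by a run of pyrimidines, through which the RNA-binding protein LARP1 and the kinase complex mTORC1 control their translation. Several members have roles known from disease or development: Rpl22 is needed in mice for alpha-beta T cells to pass beta selection, Rpl5 and Rpl11 bind the p53 inhibitor Mdm2, and Rps27l is a p53-responsive paralog of Rps27.

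The libraries held 28479157 to 45975678 counts, and the labels name no batch. Zfp36l1 stood at 1.64 to 3.8 CPM (counts relative to TMM-scaled library size) in DCKO, 9.63 to 23.3 in DN3b and 27.1 to 43.9 in DN3a, and Zfp36l2 at 45.4 to 87.9, 287 to 467 and 341 to 685 CPM in the same groups, so both deleted genes were lowest in every DCKO library. In DCKO library 1 a single feature without a symbol took 9.02% of the counts. None of 11 pre-T cell markers was at 0 in any group, and their summed level was 6276 to 11197 CPM in DCKO, 2992 to 4977 in DN3b and 5818 to 7853 in DN3a. Markers of other cells were summed in the same way. Those of B cells (5) stood at 18.6 to 24.4, 9.73 to 32.1 and 42.5 to 58.3 CPM, those of myeloid cells (5) at 7.96 to 19.1, 1.37 to 9.76 and 19.5 to 31.2, and those of natural killer cells (3) at 17.9 to 29.5, 6.24 to 27.6 and 54.5 to 57.8 in DCKO, DN3b and DN3a. Gamma-delta T cell markers (2 measured of 3) stood at 124 to 287, 139.8 to 293 and 466 to 569, thymic epithelium (4) at 9.19 to 17.2, 12.9 to 46.2 and 74.7 to 129.5, and erythroid cells (5) at 3.65 to 15.9, 2.64 to 28.1 and 7.71 to 23.1 CPM in the same groups. Pax5 and Ncr1 were at 0 in every DN3b library and Foxn1 and Krt5 in every DN3a library. The thymic epithelium sum in DN3a thus came from Epcam and Krt8 alone. The part of these other cells in the results below was not tested.

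The transcription starts of the ribosomal protein genes are shown because the TOP start is the sequence feature most closely tied to this gene set. RefSeq starts on the build GRCm38.p6 were found for 61 of the 82 members (72 starts), and each sequence runs from 10 bases before the annotated start to 20 bases from it, with the cytosine at the start and its pyrimidine run in capitals.
Rps6: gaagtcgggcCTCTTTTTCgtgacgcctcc
Rpl14: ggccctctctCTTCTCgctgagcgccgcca
Rpl38: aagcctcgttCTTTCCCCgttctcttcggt
Rplp2: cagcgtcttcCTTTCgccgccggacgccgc
Rps27: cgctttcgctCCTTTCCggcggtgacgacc
Rps27rt: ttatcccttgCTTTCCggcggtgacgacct
Rpl36al: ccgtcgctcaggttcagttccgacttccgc
Rps27l: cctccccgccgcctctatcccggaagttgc
Rpl22: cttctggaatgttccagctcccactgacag
These windows lie at chr4:86857348-86857377 (minus strand) for Rps6, chr9:120571507-120571536 (plus) for Rpl14, chr11:114668570-114668599 (plus) for Rpl38, chr7:141447641-141447670 (plus) for Rplp2, chr3:90213629-90213658 (minus) for Rps27 and chr9:114982720-114982749 (minus) for Rps27rt. Those without a run at the annotated base lie at chr12:69184048-69184077 (minus) for Rpl36al, chr9:66946076-66946105 (plus) for Rps27l and chr4:152324426-152324455 (plus) for Rpl22. Rps27l and Rpl22 each have a further annotated start downstream, also without the run. A cytosine followed by at least 4 pyrimidines stood at the annotated base in 14 of 61 members (23.0%, exact 95% binomial interval 13.2 to 35.5%), against 813 of 27025 genes (3.01%) in the whole promoter table, searched on the strand of the gene only. With the cytosine allowed within 5 bases of the annotated start the shares were 29 of 61 (47.5%) and 21.2%. No match here says only that these letters are absent at the annotated base.

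Ribosomal protein genes took on average a larger share of the counts in DCKO and DN3b than in DN3a. The share was 7.40%, 6.90%, 6.56% and 7.48% in DCKO libraries 1 to 4, 8.58%, 7.39%, 7.50% and 8.03% in DN3b libraries and 6.67%, 5.42%, 6.10% and 5.89% in DN3a libraries. The means were 7.09% ± 0.435 in DCKO, 7.87% ± 0.547 in DN3b and 6.02% ± 0.518 in DN3a (SD, n = 4). DCKO library 3 lay below DN3a library 1, so DCKO and DN3a overlapped, while the lowest DN3b library lay above every DN3a library. Without the most abundant feature of each library, the share of DCKO library 1 was 8.13%. On the TMM scale, which gives such features little weight, the members summed to 79419 ± 8373 CPM in DCKO, 79969.6 ± 5845 in DN3b and 53125 ± 4905 in DN3a. On that scale DCKO (70763.4 to 90709.7) did not overlap DN3a (46484.1 to 58248.5), and it overlapped DN3b (73174.8 to 85099.7). Mitochondrially encoded genes took 2.08% ± 0.465 of the counts in DCKO, 2.62% ± 0.837 in DN3b and 3.76% ± 0.641 in DN3a. Without them in the denominator the mean shares were 7.24% in DCKO, 8.08% in DN3b and 6.25% in DN3a, in the same order. No test was made on the summed level, since it is a score over the members. In sorted bulk samples, fewer cells of a type and less RNA per cell cannot be told apart.

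**Figure D1:**
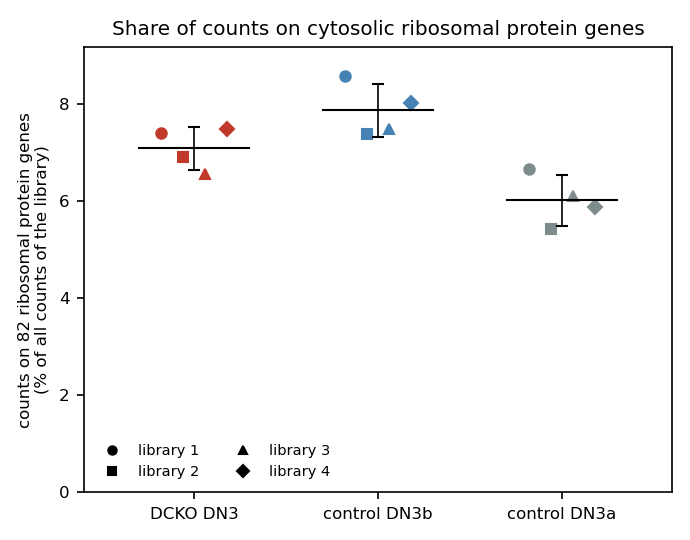
Share of all counts in each library (y axis, percent) that fell on the 82 ribosomal protein genes, by group on the x axis; symbols mark libraries 1 to 4, the line the mean and the bar the SD. The 4 DN3b libraries (7.39 to 8.58%) lie above the 4 DN3a libraries (5.42 to 6.67%), and DCKO (6.56 to 7.48%) lies between and overlaps both.

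Levels of different genes were compared per kilobase of annotated exon. The median member stood at 389 CPM per kilobase over the 12 libraries, or 976 per kilobase of the longest principal transcript, a length chosen after seeing the data. Rpl32 (1486), Rps4x (1447), Rplp0 (1353) and Rps27rt (1353) were among the 5 members with the highest levels in CPM per kilobase of exon. Rpl39l (0.662), Rps4l (1.02), Rpl37rt (1.33), Rpl24 (10.04) and Rps10 (122) had the lowest. Rpl24 shares exons on its strand with Gm28037 and Rps10 with RPS10-NUDT3. No source used here says how the counter treated reads in such overlaps, and the low levels of these genes are uncertain. In all, 28 members share exon bases with another gene on the same strand and 18 on the opposite strand. The 257 pseudogenes named -ps together held counts equal to 0.0716% of those on the members.

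Against DN3a, most ribosomal protein genes were higher in DCKO, nearly all by less than 2-fold. All 82 members passed the filter on low counts. Of these, 62 rose and 0 fell at an adjusted p below 0.05 in edgeR's quasi-likelihood test, while 30.7% of the 13944 genes tested rose and 29.5% fell. The other 20 did not pass. The median log2 fold change was 0.58 (1.499-fold), within a range of -0.46 to 1.40, and the median over all genes tested was -0.041. In 59 members the lowest DCKO library lay above the highest DN3a library, against 27.8% of all genes, and in 0 members did the groups separate the other way. By role, 22 of 33 genes of the 40S subunit rose (median log2 0.56), 40 of 46 of the 60S subunit (0.59) and 0 of 3 of the stalk (0.51). Only Rps27l, Rpl36al and Rpl14 rose by at least 2-fold. Over all genes, 3698 of 13944 were called with a change of at least 2-fold in either direction. Without DCKO libraries 1 and 2 together, 53 members rose, against 3423 of the 14592 genes tested in that fit.

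Between the control stages the genes moved in the same direction. In DN3b against DN3a 69 members rose and 0 fell, against 27.4% and 25.2% of all genes, and 13 did not pass. The median log2 fold change was 0.59 (1.502-fold), within a range of -0.05 to 1.40. The groups did not overlap in 67 members, all higher in DN3b, against 24.8% of all genes. Of the 40S subunit 25 of 33 rose, of the 60S subunit 41 of 46, and of the stalk 3 of 3. With replicate number as a block, where the numbers paired these libraries, 75 members rose, against 33.0% of all genes, in a fit of the 8 libraries of the comparison that without the block gave 70. The 9 members that rose by at least 2-fold were Rplp1, Rpl41, Rplp2, Rps2, Rpl29, Rpl8, Rpl14, Rps26 and Rps27l. Over all genes, 2734 of 13944 were called with a change of at least 2-fold in either direction.

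The number of members called depends on how the libraries are scaled. With library size alone as the scale, 32 members rose in DCKO against DN3a and 0 fell, and in DN3b against DN3a 53 rose and 1 fell (Rps24, log2 -0.22, adjusted p = 0.043). That scale moved the median of all genes to -0.38 and -0.22, and split all calls into 2575 higher and 6243 lower in the first comparison and 2739 and 4907 in the second, in place of 4275 and 4116, and 3815 and 3519. Upper quartile factors gave 51 and 57 members higher and 0 lower, with splits over all genes of 3119 and 5528, and 3021 and 4536. Relative to the median of all genes, the median member was higher by 0.62 and 0.61 on the log2 scale, a difference that scaling leaves nearly as it is by construction.

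Set directly against each other, DCKO and DN3b differed at few ribosomal protein genes. In DCKO 1 member rose (Rpl36al) and 0 fell, against 10.3% and 8.58% of all genes, and 81 did not pass. At an unadjusted p under 0.05 there were 5 higher and 2 lower, against 2372 and 2341 of the 13944 genes tested. DESeq2 called 3 higher and 0 lower, against 1796 and 1552 of 13937 genes. The median log2 fold change was 0.03, with 42 estimates above 0 and 40 below, within a range of -1.27 to 0.39. The groups did not overlap in 2 members higher in DCKO, among them Rpl36al, against 11.0% of all genes, and in 0 lower, against 9.87%. The 95% interval of the difference lay within 0.5 on the log2 scale on either side of 0 for 53 members and within 1 for 75, with a median standard error of 0.13. A p that misses the threshold does not show that levels were alike.

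**Figure D2:**
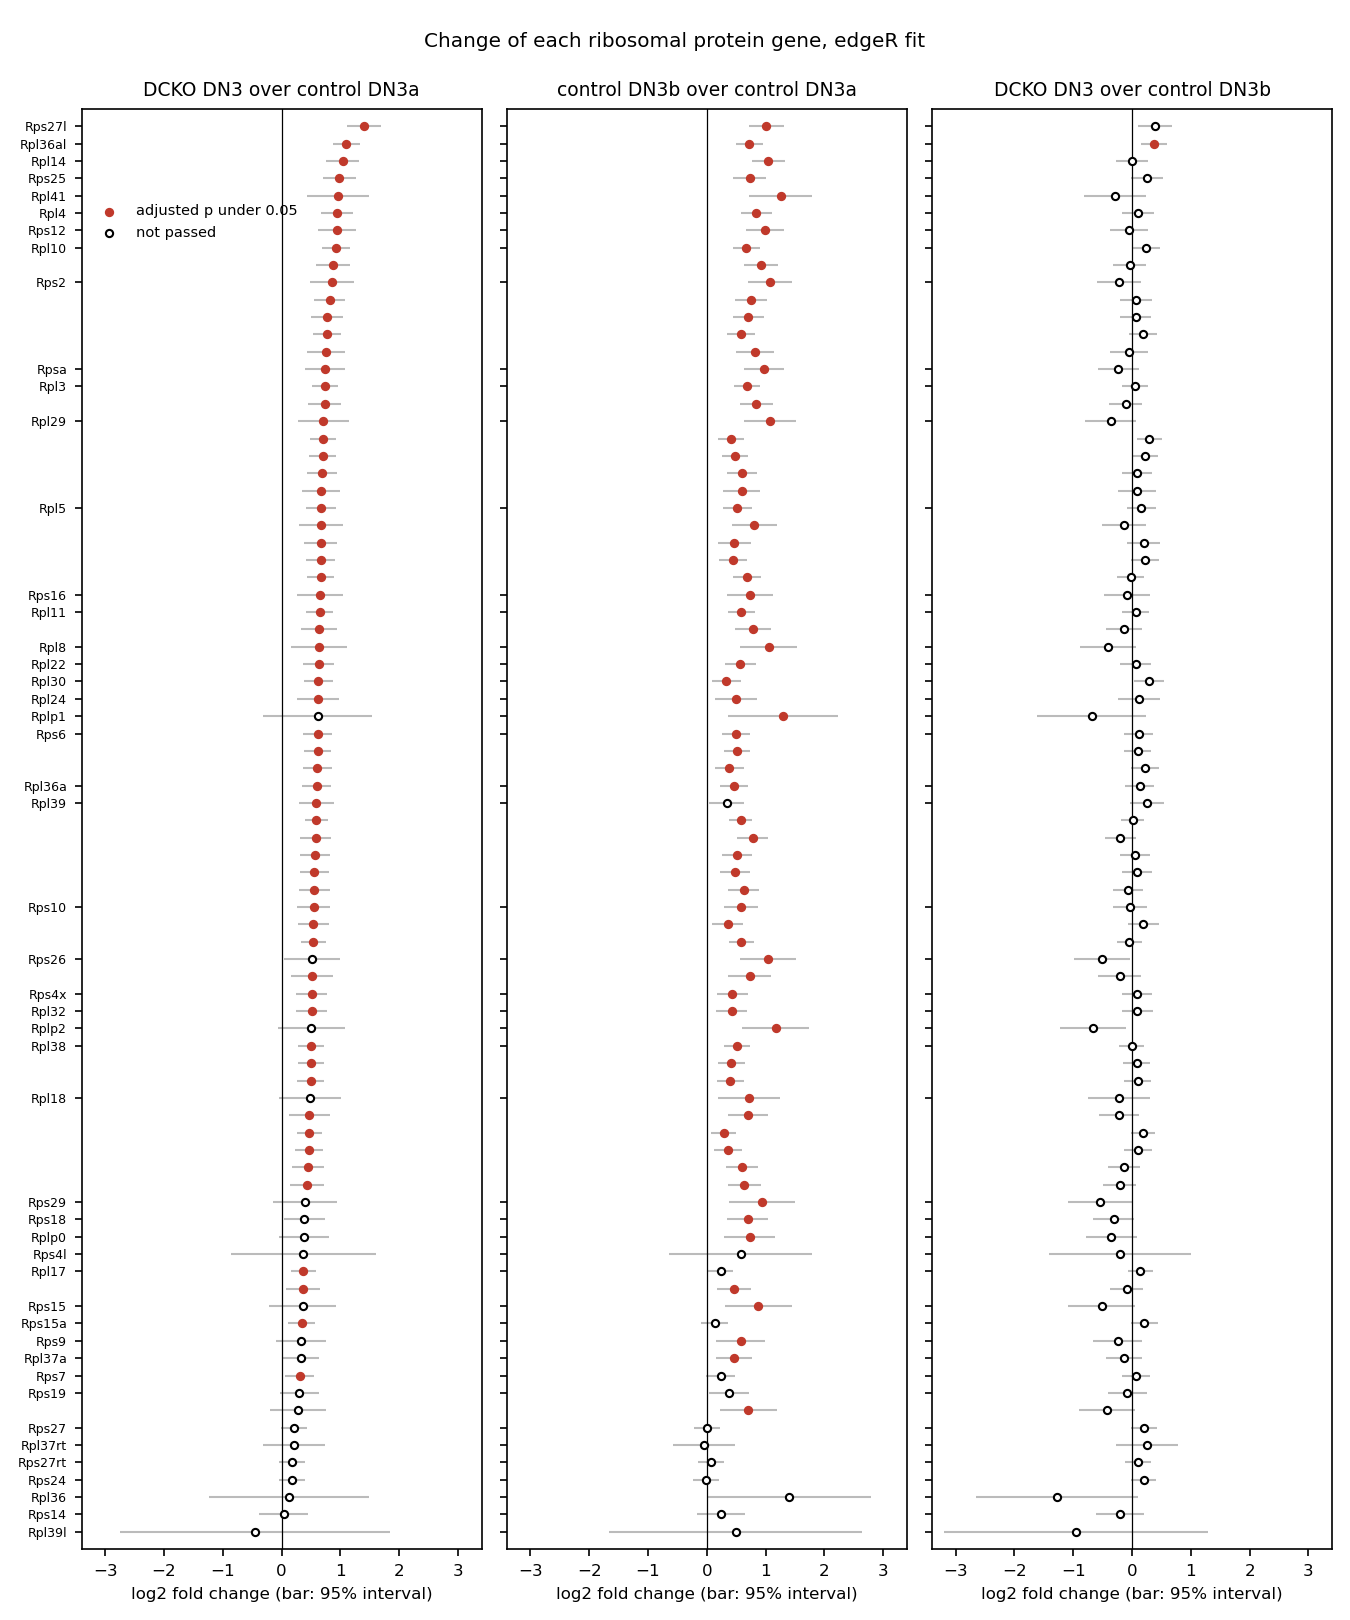
Log2 fold change (x axis) of each of the 82 ribosomal protein genes (y axis, ordered by the change of DCKO over DN3a, with names for some) in the 3 comparisons, with 95% intervals from the edgeR fit; filled points passed an adjusted p of 0.05. Filled points lie right of 0 for 62 genes in the first panel and 69 in the second, and for 1 gene, Rpl36al, in the third.

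Both comparisons with DN3a use the same DN3a libraries, so their calls are set side by side without a measure of agreement. The share of all genes that passed in both or in one alone was not counted, so the counts that follow have no background beside them. In both, 58 members passed. Rpl17, Rpl39, Rps15a and Rps7 passed in DCKO against DN3a alone, 11 members passed in DN3b against DN3a alone, and Rpl36, Rpl37rt, Rpl39l, Rps14, Rps19, Rps24, Rps27, Rps27rt and Rps4l passed in neither. Among the 11 were Rpl18, Rpl37a, Rplp0, Rplp1, Rplp2, Rps15, Rps18, Rps26, Rps29 and Rps9. These classes come from the fit without a replicate block, although replicate numbers paired DN3b with DN3a. With the block, Rpl39 (adjusted p = 0.0060), Rps14 (0.038) and Rps19 (0.0029) were also higher in DN3b than in DN3a. Passing in one and missing in the other does not show a difference. In DCKO against DN3b none of the 15 members that passed in 1 comparison alone passed in the fit of all 12 libraries. Without DCKO library 4, Rpl39 passed there as higher and Rplp2, Rps15, Rps26 and Rps29 as lower. The authors' deposited tables, on the same counts, list 63 members higher in DCKO than DN3a, 71 higher in DN3b than DN3a and 1, Rpl36al, higher in DCKO than DN3b, with 0 lower in each. The share of all genes called there was not counted, so these counts have no background beside them.

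Among the 40S genes, Rps27l had the largest change in DCKO against DN3a. Rps27l (chr9:66946086-66949516, plus strand, GRCm38) encodes a paralog of Rps27 that responds to p53. It stood at 215, 177, 176 and 151 CPM in DCKO libraries 1 to 4, 121, 129, 134 and 163 in DN3b and 54.5, 70.4, 71.1 and 75.7 in DN3a. Every DCKO and DN3b library lay above every DN3a library, and DCKO library 4 lay below DN3b library 4, so these groups overlapped. Rps27l was 2.64-fold higher in DCKO than in DN3a (log2 1.40 ± 0.14, SE, adjusted p = 6.7e-06) and 2.02-fold higher in DN3b than in DN3a (1.01 ± 0.14, 9.7e-05). In DCKO against DN3b its log2 fold change was 0.39 ± 0.13 with an adjusted p of 0.059. It passed there with DESeq2 (0.041) and without DCKO library 4 (0.030), DN3b library 4 (0.027) or DN3a library 1 (0.040).

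Rps27 itself (chr3:90212522-90213651, minus strand), whose product sits in the 40S subunit, stood at 574, 474, 451 and 414 CPM in DCKO, 424, 407, 396 and 434 in DN3b and 396, 432, 419 and 404 in DN3a. The groups overlapped in every comparison. Its log2 fold changes were 0.21 in DCKO against DN3a (adjusted p = 0.087), 0.01 in DN3b against DN3a (0.94) and 0.20 in DCKO against DN3b (0.18). Without DCKO library 4 it passed against DN3a (0.28, 0.029). The retrogene Rps27rt, whose start shown above is close to that of Rps27, averaged 539.6 ± 69.4, 502 ± 28 and 477 ± 23.9 CPM in DCKO, DN3b and DN3a (SD, n = 4) and missed the threshold in all 3 comparisons (adjusted p = 0.14, 0.5 and 0.56 for DCKO against DN3a, DCKO against DN3b and DN3b against DN3a). Reads of near-identical copies can be split between them or lost, so the levels of Rps27 and Rps27rt are uncertain.

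The ratio of the paralogs within a library does not depend on scaling. Rps27l counts were 37.4%, 37.2%, 39.0% and 36.4% of the Rps27 counts in DCKO, 28.6%, 31.8%, 33.8% and 37.6% in DN3b, and 13.8%, 16.3%, 17.0% and 18.7% in DN3a. DN3a lay below the other groups in every library, and DCKO overlapped DN3b only through DN3b library 4.

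Rps24 and Rps14 were among the members that passed in no comparison. Rps24, which encodes a 40S protein mutated in Diamond-Blackfan anaemia in humans, stood at 1589.7, 1445, 1413 and 1214 CPM in DCKO, 1202, 1263, 1146 and 1334 in DN3b and 1207, 1308, 1248 and 1248 in DN3a. All groups overlapped, with a log2 fold change of 0.18 (95% interval -0.04 to 0.40) in DCKO against DN3a and -0.02 (-0.24 to 0.20) in DN3b against DN3a. Rps14, lost from a chromosome arm in a human myelodysplastic syndrome, stood at 1259, 1024, 889 and 1121 CPM in DCKO, 1524, 1039, 1149.6 and 1234 in DN3b and 1451, 733, 997 and 1017 in DN3a. DN3a library 1 was higher than every DCKO library and DN3a library 2 lower than every library of both other groups, and the log2 fold changes were 0.03 (-0.38 to 0.44) and 0.24 (-0.17 to 0.65). With the replicate block in DN3b against DN3a, Rps14 (0.24, adjusted p = 0.038) and Rps19 (0.37, 0.0029) passed. Rps19, which encodes another 40S protein mutated in Diamond-Blackfan anaemia, had 0.38 and an adjusted p of 0.056 without the block. It also passed in DN3b against DN3a with limma-voom (0.39, 0.041) and without DN3a library 1 (0.52, 0.010).

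Other 40S genes rose in both comparisons with DN3a. Rps25 averaged 1147 ± 213 CPM in DCKO, 960.4 ± 82.9 in DN3b and 580.2 ± 36.7 in DN3a (SD, n = 4), a log2 fold change of 0.98 ± 0.13 in DCKO against DN3a. Rps12 rose by 0.94 in DCKO and 0.98 in DN3b, and Rps2 by 0.85 and 1.08, each against DN3a on the log2 scale. Rps6, the substrate of the S6 kinases, stood at 1327, 1093, 969 and 1045 CPM in DCKO, 1032, 952, 984 and 1133 in DN3b and 776, 667, 730.0 and 727 in DN3a. Neither DCKO nor DN3b overlapped DN3a for Rps6, which rose by 0.61 (adjusted p = 0.00046) and 0.50 (0.0025). Rpsa, also known as the laminin receptor, rose by 0.74 and 0.97 against DN3a, and the X-linked Rps4x by 0.51 and 0.43. The near-silent paralog Rps4l stood at 0.501 to 1.82 CPM in DCKO, 0.423 to 2.33 in DN3b and 0.455 to 1.53 in DN3a, with an SE of 0.56 to 0.57 that leaves its direction unresolved.

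Among the 60S genes, Rpl36al was the member called in all 3 comparisons. Rpl36al (chr12:69182731-69184083, minus strand) and the X-linked Rpl36a encode near-identical proteins of the 60S subunit, and Rpl36al shares exon bases with Gm49383. It stood at 321, 253, 235 and 244 CPM in DCKO, 194, 196, 202 and 222 in DN3b and 129, 112, 122 and 130.0 in DN3a. No groups overlapped, with DCKO highest and DN3a lowest. The log2 fold change was 1.09 ± 0.11 in DCKO against DN3a (adjusted p = 6.6e-06), 0.72 ± 0.11 in DN3b against DN3a (0.00017) and 0.37 ± 0.11 in DCKO against DN3b (0.027). The call against DN3b was lost without DCKO library 1 (log2 0.24, adjusted p = 0.091), DCKO library 2 (0.37, 0.062) or both (0.24, 0.23). It was also lost without DN3b library 1 (0.35, 0.055), 2 (0.33, 0.091) or 3 (0.34, 0.087). The same held with the 8 libraries of the comparison alone (0.36, 0.056), with no filter on low counts (0.37, 0.0501), and with upper quartile factors (0.29, 0.052) or library size alone (0.23, 0.056).

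Rpl36a averaged 692 ± 104 CPM in DCKO, 634 ± 47.2 in DN3b and 459 ± 20.9 in DN3a (SD, n = 4) and rose by 0.59 (adjusted p = 0.00056) and 0.46 (0.0038) against DN3a, with 0.13 (0.45) in DCKO against DN3b. Rpl36al counts were 38.7%, 35.2%, 37.8% and 40.7% of the Rpl36a counts in DCKO libraries, 32.4%, 31.1%, 33.3% and 31.6% in DN3b, and 29.9%, 24.2%, 26.6% and 27.0% in DN3a. This ratio did not overlap between any groups and was highest in DCKO.

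Rpl22 encodes the protein that alpha-beta T cells of mice need at beta selection. It stood at 621, 529, 492 and 424 CPM in DCKO, 472, 484, 475 and 553 in DN3b and 302, 322, 339 and 374 in DN3a. Both DCKO and DN3b lay above DN3a in every library and overlapped each other. Rpl22 rose by 0.63 ± 0.12 in DCKO (adjusted p = 0.00066) and 0.57 ± 0.12 in DN3b (0.0018) against DN3a, and the difference of DCKO from DN3b was 0.06 (95% interval -0.20 to 0.32, 0.77). Its paralog Rpl22l1, which the naming rule does not take in, stood at 270.2, 228, 188 and 166 CPM in DCKO, 148, 171, 163 and 204 in DN3b and 91.9, 125, 112 and 120.2 in DN3a. Rpl22l1 rose by 0.93 ± 0.16 (0.00026) and 0.61 ± 0.16 (0.0053) against DN3a, without overlap, and did not pass in DCKO against DN3b (0.31 ± 0.15, 0.18). Rpl22l1 counts were 43.5%, 43.1%, 38.3% and 39.2% of the Rpl22 counts in DCKO, 31.4%, 35.4%, 34.4% and 36.9% in DN3b, and 30.4%, 38.9%, 32.9% and 32.1% in DN3a. This ratio was higher in every DCKO library than in DN3b and overlapped DN3a through DN3a library 2.

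Rpl14, whose start shown above carries a pyrimidine run, stood at 1436, 1166, 1026 and 1187 CPM in DCKO, 1199, 1085, 1187 and 1360.2 in DN3b and 616, 490.0, 584 and 655 in DN3a. DCKO and DN3b both lay above DN3a without overlap, by 2.05-fold (log2 1.04 ± 0.13, adjusted p = 2.8e-05) and 2.06-fold (1.04 ± 0.13, 6.1e-05), and the difference of DCKO from DN3b had a 95% interval of -0.28 to 0.27. Rpl10, which joins the 60S subunit late in its assembly, rose by 0.92 in DCKO and 0.67 in DN3b, and Rpl4, part of the wall of the exit tunnel, by 0.94 and 0.84, each against DN3a on the log2 scale. Rpl5 and Rpl11, which with 5S ribosomal RNA bind Mdm2, rose by 0.67 and 0.65 in DCKO and by 0.52 and 0.58 in DN3b against DN3a. Rpl3, near the peptidyl transferase centre, rose by 0.73 and 0.68, and Rpl38, which in mice supports translation of Hox messengers, by 0.50 and 0.51. Rpl39 rose by 0.59 in DCKO (adjusted p = 0.0022) and had 0.33 in DN3b (0.051). In DN3b it passed with the replicate block (0.31, 0.0060), with the 8 libraries alone (0.31, 0.032) and with limma-voom (0.33, 0.045). Rpl39 also passed there without DCKO library 1 (0.33, 0.030), DCKO library 4 (0.34, 0.021) or DCKO libraries 1 and 2 (0.32, 0.035). Its paralog Rpl39l stood at 0 to 0.806 CPM in DCKO, 0.0796 to 1.81 in DN3b and 0.0237 to 1.06 in DN3a, which is too low for a direction.

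**Figure D3:**
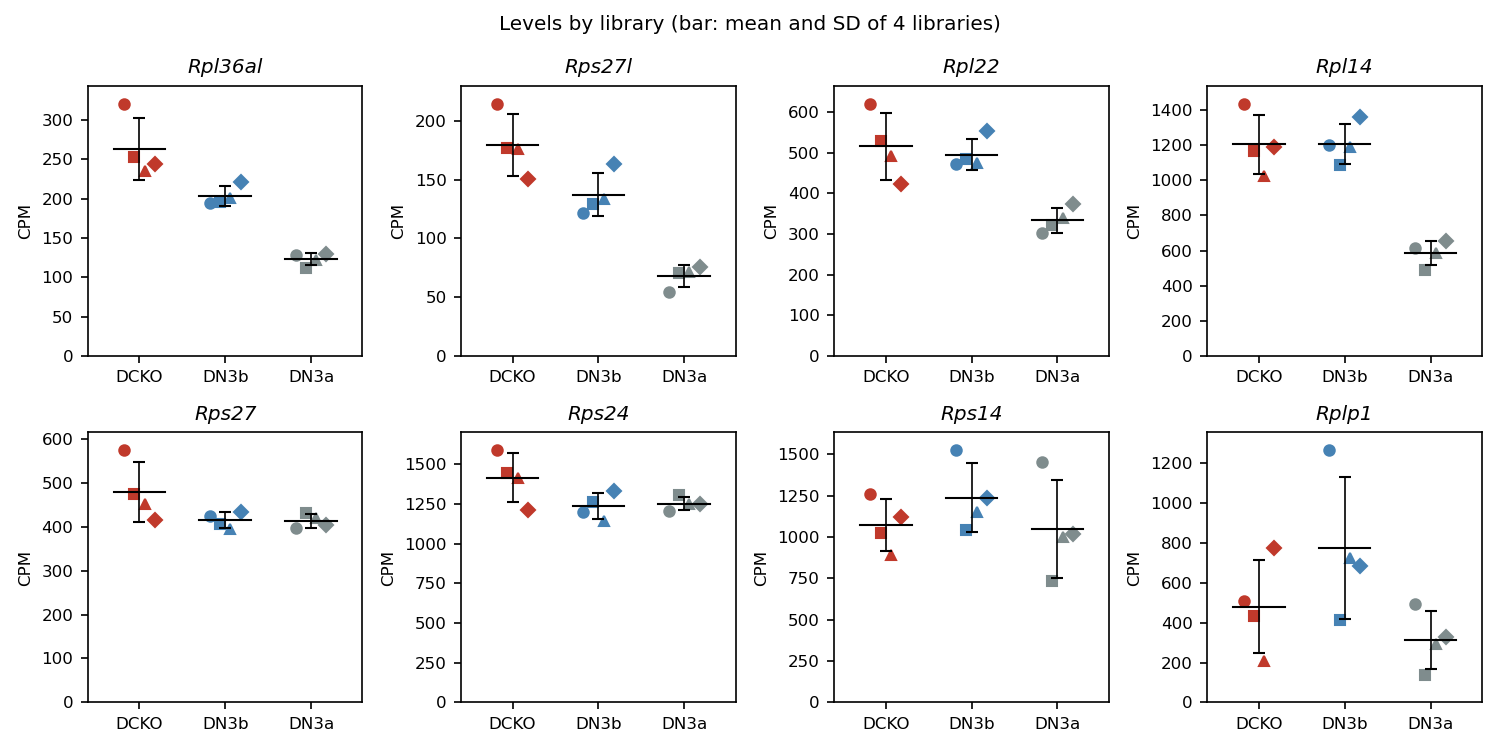
Level in CPM (y axis, from 0) of 8 ribosomal protein genes in each library of the DCKO, DN3b and DN3a groups (x axis); symbols mark libraries 1 to 4, the line the mean and the bar the SD. Rpl36al, Rps27l, Rpl22 and Rpl14 lie higher in every DCKO and DN3b library than in DN3a, Rps27, Rps24 and Rps14 overlap between all groups, and Rplp1 spreads widely within each group, from 208 to 774 CPM in DCKO.

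The stalk genes Rplp0, Rplp1 and Rplp2 encode the acidic proteins that recruit translation factors to the 60S subunit, and Rplp1 and Rplp2 were among the members that varied most within the groups. Rplp0 stood at 2315, 1981, 1839.6 and 2710.4 CPM in DCKO, 3519, 2323, 2776 and 2665 in DN3b and 2274, 1162, 1714 and 1662 in DN3a. Rplp1 stood at 509, 432, 208 and 774 CPM in DCKO, 1265, 416, 725 and 685 in DN3b and 493, 138, 294 and 330.1 in DN3a. Rplp2 stood at 279, 259.6, 267 and 455 CPM in DCKO, 749, 389, 506 and 349 in DN3b and 277, 149.6, 245 and 216 in DN3a. DCKO library 4, DN3b library 1 and DN3a library 1 were the highest of their group for each of the 3 genes, and DN3a library 2 the lowest of its group. In DN3b against DN3a the 3 genes rose by 0.73 ± 0.20 (adjusted p = 0.0082), 1.30 ± 0.43 (0.023) and 1.17 ± 0.26 (0.0027), with the libraries of Rplp1 overlapping. Without DN3b library 1 the change of Rplp1 was 0.96 (0.069) and without DN3a library 2 it was 1.05 (0.060), and without DN3a library 3 it was 1.27 (0.053), all short of the threshold. These fits and the overlap leave aside that replicate numbers paired the DN3b and DN3a libraries. Within each number Rplp1 was higher in DN3b than in DN3a, and its call held with the replicate block. In DCKO against DN3a the values were 0.38 ± 0.20 (0.12), 0.61 ± 0.43 (0.23) and 0.51 ± 0.26 (0.11), and in DCKO against DN3b -0.35 ± 0.20 (0.23), -0.68 ± 0.43 (0.28) and -0.66 ± 0.26 (0.095).

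The same libraries stood apart for some other members, many of them with GC-rich transcripts. The within-group SD on the log2 scale had a median of 0.17 over 79 members with at least 1000 counts and was largest for Rpl36 (1.03), Rplp1 (0.74), Rps15 (0.43), Rplp2 (0.42) and Rps29 (0.41). Rpl36, which has the highest transcript GC content of these (60.8%), stood at 38.3, 30.3, 44.1 and 179.7 CPM in DCKO, 338, 101, 157 and 112 in DN3b and 139, 21.9, 51.6 and 55.8 in DN3a. Its DCKO library 4, DN3b library 1 and DN3a library 1 were again the highest of their groups. Across the 79 genes within a library, the deviation from the group mean went with transcript GC content at Pearson's r of 0.55 in DCKO library 4, 0.53 in DN3b library 1 and 0.61 in DN3a library 1, and of -0.48 in DCKO library 2, -0.60 in DN3b library 2 and -0.63 in DN3a library 2. In the other libraries it lay between -0.38 and 0.30. These genes share a library and are not independent replicates. The 11 members that passed in DN3b against DN3a alone had a median within-group SD of 0.35 and a median GC content of 54.0%, against 0.15 and 51.2% for the 58 that passed in both.

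Leaving out DCKO library 4 changed the calls of DCKO against DN3b. Without it, 5 members were higher in DCKO and 5 lower, in place of 1 and 0, while 11.9% and 10.9% of all genes were, so the share of members called stayed below that of all genes in both directions. Among the higher ones were Rps27l (log2 0.47), Rpl36al (0.41), Rpl30 (0.37) and Rpl39 (0.36), and the lower ones were Rpl36 (-2.23), Rplp2 (-0.89), Rps29 (-0.85), Rps15 (-0.80) and Rps26 (-0.74). Without DN3b library 4, 3 members were higher and Rplp2 was lower (-0.81), against 9.92% and 10.3% of all genes. Rps26, another 40S protein gene of Diamond-Blackfan anaemia, has a transcript GC content of 48.6%, below the median of the members, and stood at 426, 387, 437 and 699.7 CPM in DCKO, 886, 559.7, 725 and 619 in DN3b and 428, 230.2, 353 and 350.4 in DN3a, so that DCKO library 4 alone reached the DN3b range. The part of GC content in these differences was not tested.

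**Figure D4:**
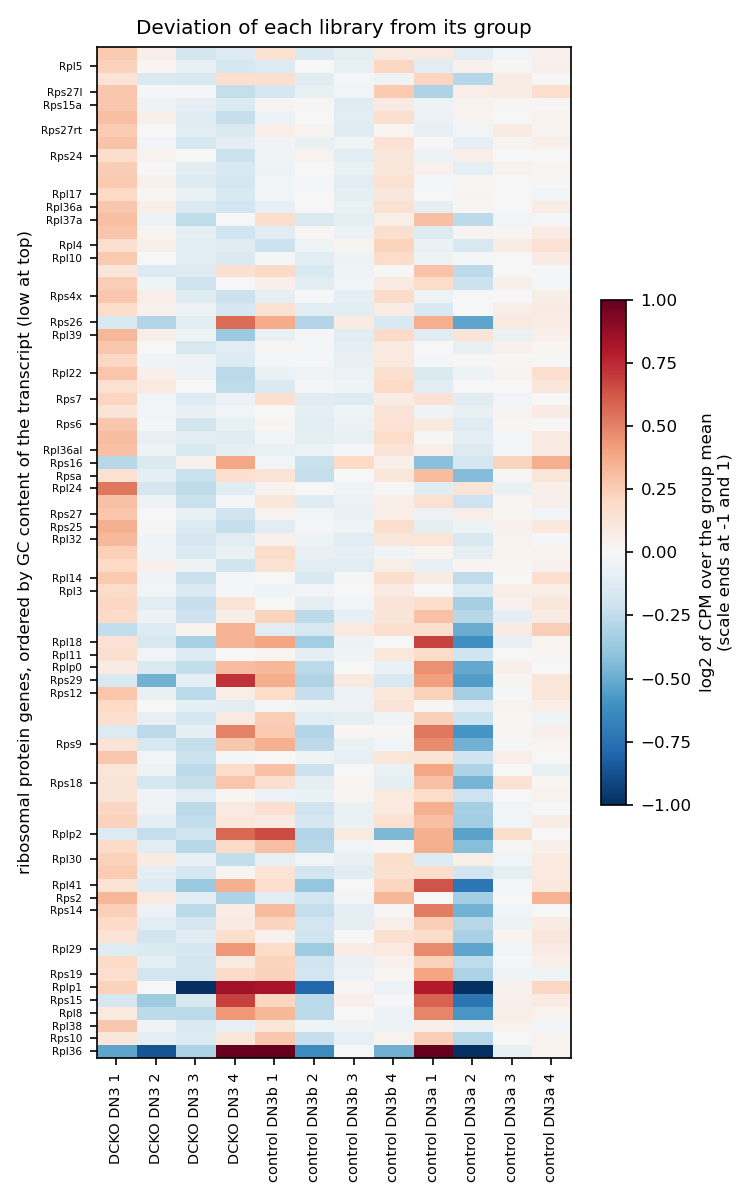
Log2 of each library's CPM over the mean of its group (colour, scale ends at -1 and 1) for 79 ribosomal protein genes (rows, some named, from low transcript GC content at the top to high at the bottom) in the 12 libraries (columns). Many, not all, of the GC-rich rows are red in DCKO library 4, DN3b library 1 and DN3a library 1 and blue in DN3a library 2, where Rpl36 lay 1.31 below its group mean on this scale.

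Genes that work with the ribosomal proteins were taken as lists and described by their counts. Over all genes tested, 30.7% rose and 29.5% fell in DCKO against DN3a, 27.4% and 25.2% in DN3b against DN3a, and 10.3% and 8.58% in DCKO against DN3b. Of 5 other proteins of the cytosolic ribosome or close paralogs (among them Fau, Rack1, Rpl22l1 and Rpl7l1), 4 were higher and 0 lower in DCKO against DN3a, 5 and 0 in DN3b against DN3a, and 0 and 0 in DCKO against DN3b. Fau, which encodes the 40S protein Rps30 fused to a ubiquitin-like domain, was the exception in DCKO (0.45 ± 0.26, adjusted p = 0.16). The ribosomal protein gene Rps3a1 ends in a digit and so fell outside the letters of the naming rule, a choice described after its values were seen. It averaged 1889 ± 262 CPM in DCKO, 1761 ± 139.9 in DN3b and 1445 ± 65.2 in DN3a, with log2 fold changes of 0.39 (adjusted p = 0.01) and 0.29 (0.0499) against DN3a and 0.10 (0.57) in DCKO against DN3b.

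Of 28 translation factors and other TOP messengers, 23 rose in DCKO against DN3a and 24 in DN3b against DN3a, against 30.7% and 27.4% of all genes, with 0 lower and medians of 0.78 and 0.75. Eif3g, a subunit of an initiation factor, rose by 1.12 in DCKO and 1.08 in DN3b, and Eef1d, a subunit of an elongation factor, by 1.15 and 1.20, while the growth-related Tpt1 had -0.01 (-0.34 to 0.33) and 0.00 (-0.34 to 0.34). The helicase Eif4a1 stood at 3210.5, 2937, 2935 and 2697 CPM in DCKO, 1470.4, 1782, 1769.7 and 2156 in DN3b and 913, 999, 1014 and 1135 in DN3a. Its DCKO libraries lay above every DN3b library, and it was the 1 gene of the list higher in DCKO than in DN3b (log2 0.71 ± 0.13, adjusted p = 0.0021). Of 6 snoRNA host RNAs measured, 5 rose in each comparison with DN3a, and Snhg6 was also higher in DCKO than in DN3b (0.73 ± 0.13, 0.0026).

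Of 13 genes of the mTORC1 and LARP1 system, 4 rose and 2 fell in DCKO against DN3a, 5 rose and 0 fell in DN3b against DN3a, and 1 rose in DCKO against DN3b. The share that rose in DCKO against DN3a was near the 30.7% of all genes. Larp1 rose by 1.08 and 0.78 and the GTPase Rheb by 0.93 and 0.58 against DN3a. The inhibitor of cap-dependent translation Eif4ebp1 rose by 2.05 and 1.33, and its partner, the cap-binding protein Eif4e, by 1.34 and 0.74, and Eif4e was also higher in DCKO than in DN3b (0.59 ± 0.15, 0.014). Rptor (-0.33, 0.04), the substrate-binding part of mTORC1, and Rps6kb2 (-0.35, 0.043), an S6 kinase, were the 2 lower in DCKO than in DN3a. Of 13 nuclear import factors and chaperones of ribosomal proteins, 10 rose in each comparison with DN3a, among them the importin Ipo5 (1.39 in DCKO and 1.38 in DN3b) and the Rpl3 chaperone Grwd1 (1.23 and 1.47), and Pdcd2l was higher in DCKO than in DN3b (0.42 ± 0.11, 0.023).

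The mitochondrial ribosome is built from a separate set of nuclear genes. Of 76 tested, 73 rose in DCKO against DN3a (median log2 0.89) and 74 in DN3b against DN3a (0.74), with 0 lower. In DCKO against DN3b 9 were higher and 2, Mrpl52 and Mrpl38, lower (median 0.15), the higher share near the 10.3% of all genes and the lower share under their 8.58%. The medians for the cytosolic genes were 0.58, 0.59 and 0.03 in the same comparisons.

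**Figure D5:**
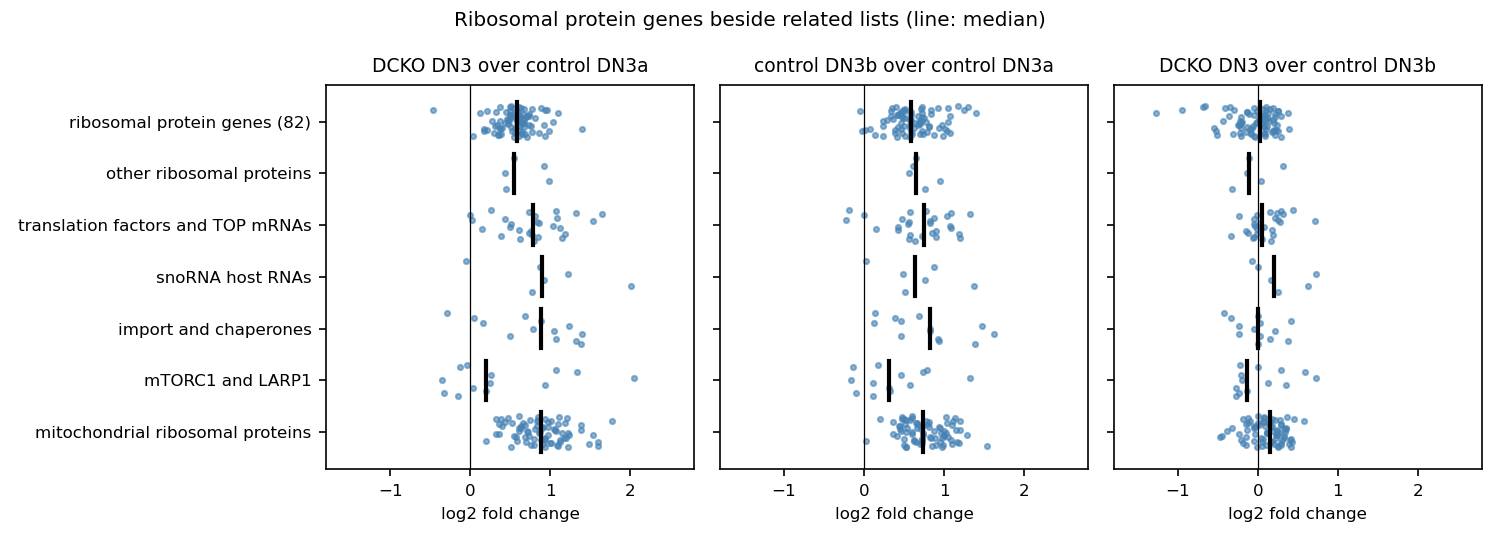
Log2 fold change (x axis) of the genes of 7 lists (rows; each point is a gene, the line the median) in the 3 comparisons. The cytosolic ribosomal protein genes centre on 0.58 and 0.59 against DN3a and on 0.03 in DCKO against DN3b, and the mitochondrial ribosomal protein genes on 0.89, 0.74 and 0.15.

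Members with and without the TOP start were set side by side. Over all genes tested, 30.7% rose in DCKO against DN3a and 27.4% in DN3b against DN3a. In DCKO against DN3a, 10 of the 14 members with the start at the annotated base rose (median 0.53) and 37 of the 47 without it (0.59). In DN3b against DN3a the counts were 11 of 14 (0.64) and 41 of 47 (0.59). With the cytosine allowed within 5 bases, 21 of 29 members with it (0.58) and 26 of 32 without it (0.58) rose in DCKO against DN3a. For DN3b against DN3a these were 24 of 29 (0.59) and 28 of 32 (0.59). These are descriptions of the annotated starts, with no test.

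The 3′ untranslated regions of the members were searched for TATTTAT, the core of the AU-rich element that the deleted proteins bind, on the strand of the transcript. In the longest principal transcript of GENCODE M21 it was present in 2 of 80 members (2.50%), Rps15a and Rps16, against 3250 of 11740 tested protein-coding genes (27.7%). The regions differ in length, with a median of 88 bases in the members and 996 in all. Rps15a, annotated with a region of 4728 bases, rose by 0.34 ± 0.11 in DCKO against DN3a (adjusted p = 0.013) and had 0.21 ± 0.11 (0.18) in DCKO against DN3b, and Rps16 had 0.65 ± 0.18 (0.0078) and -0.09 ± 0.18 (0.78) in the same comparisons. A match is not a binding site.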

How the data were processed

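Total RNA of sorted pre-T cells was sequenced in 12 libraries after removal of ribosomal RNA, per the labels' protocols, with 20 to 200 ng of RNeasy Micro RNA as input to a stranded kit. Reads were handled with TopHat2 2.0.12, HTSeq, Trim Galore and DESeq2 1.6.3 on GRCm38, per the submitters' processing notes. Neither the release of the annotation nor the strand option of the counter is given in the sources used here. The authors deposited raw counts per Ensembl gene, and all values here were computed from these unless the authors' tables are named. The authors also deposited counts divided by size factors (a signal, not used) and DESeq2 tables with log2 fold changes, a test statistic (a score, not used), p-values and adjusted p-values for each pair of groups, used only for counts of calls.

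The members and lists were chosen with earlier results of these data known. Symbols, exon lengths and overlaps came from GENCODE M21 (GRCm38; 42548 of 43629 genes matched), and starts from RefSeq's promoter table (GRCm38.p6), where 21 members had no entry. Low genes were removed by filterByExpr of edgeR (count minimum 10). All 12 libraries entered 1 edgeR 4.0.16 quasi-likelihood fit (R 4.3.3) with TMM factors and group as the only term (9 residual degrees of freedom), two-sided, with Benjamini-Hochberg adjustment over 13944 genes and 0.05 as the threshold. Standard errors were taken as |log2 fold change| over the root of the F statistic, and folds are antilogs of the fitted values. Levels are in CPM with TMM-scaled totals. Alternatives used limma 3.58.1 and DESeq2 1.42.0.

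Named members are a fixed set of genes with known roles or paralogs, the 8 largest rises and falls of each comparison among those that passed, all that passed in DCKO against DN3b, and the 5 highest and lowest per kilobase. Rpl17, Rpl18, Rpl30, Rpl36, Rpl37a, Rps7, Rps9, Rps15, Rps15a, Rps16, Rps18 and Rps24, and of the lists Fau, Tpt1 and Rps3a1, were printed after their values were seen. Up to 4 genes a list were named by smallest p. Some genes that these rules take in are not reported here by name. Replicate numbers paired the DN3b and DN3a libraries (correlation of deviations from the group means 0.44, 0.56, 0.35 and 0.52 within numbers 1 to 4); those of DCKO did not pair with either control. Whether replicates came from separate mice is not stated beyond their being biological replicates, and no 2 libraries of a group were alike within counting noise. Depth was 28479157 to 45975678 counts a library, so replicate spread rather than counting error limits all but the lowest members, and reads copied by PCR were not collapsed to molecules.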

Additional observations from a re-analysis of the deposited data

Results flagged for a closer look

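In 114 groups of 4 libraries, those of 37 named members and of the share of counts on all members in each of 3 groups, the highest or lowest library was set against the rest of its group by Dixon's criterion, which chance meets in about 1 of 20 groups; 7 groups met it. In DCKO library 4, Rplp2 stood at 455 CPM, Rps26 at 699.7 and Rpl29 at 285, each the highest of its group by a wide gap. In DCKO library 1, Rpl24 stood at 17.0 CPM, above the other DCKO libraries. In DN3b library 4, Rpl22 stood at 553 CPM, and in DN3b library 1 Rpl38 stood at 442 CPM, each above the other DN3b libraries. Rps4l stood at 1.53 CPM in DN3a library 1, above the other DN3a libraries.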

How the results depend on the processing

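Of the values for single named members under the alternatives, 2390 kept their direction and side of the threshold, 81 changed sign without passing in either fit, 32 newly passed, 41 no longer passed and 0 that passed changed sign. In DCKO against DN3a the count of members higher moved by over 1.5 times only with library size alone (32 in place of 62), and leaving out single libraries gave 56 to 69, and 0 lower. In DN3b against DN3a, single libraries left out gave 62 to 72 higher and 0 lower; library size alone gave 1 lower. In DCKO against DN3b the count higher, 1, was 0 with upper quartile factors, library size alone, no low-count filter, the 8 libraries alone, the replicate block and without DCKO libraries 1 and 2 together, 3 with DESeq2, 2 with limma-voom and 2 with a count minimum of 50; single libraries left out gave 0 to 5 higher and 0 to 5 lower. The cause was not tested. With replicate number as a block, 75 members were higher in DN3b against DN3a (0 lower), 60 in DCKO against DN3a and 0 in DCKO against DN3b (Rpl36al adjusted p = 0.14), each fitted on the 8 libraries compared, where DCKO libraries share only a number with the controls. The share of counts with 1 library left out was 6.96 to 7.26% in DCKO, 7.64 to 8.04% in DN3b and 5.80 to 6.22% in DN3a. The share of members with a TOP start moved to 47.5% with the cytosine within 5 bases, and the median level per kilobase to 976 with the principal transcript's length, an alternative chosen after seeing the data. With a count minimum of 50, 79 of the 82 members were tested. Depth limits Rpl39l, Rps4l and Rpl37rt, at under 500 counts over all libraries.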
